A study of Mus musculus with 4 samples.

Results

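The 10 imprinted protein-coding genes described here are Igf2, Igf2r, Peg3, Peg10, Grb10, Mest, Cdkn1c, Dlk1, Plagl1 and Zdbf2. They were taken by name, not by any measured value, from 4 site tables of N6-methyladenosine (m6A) in mouse retinal organoids. All 10 names had listed sites, out of 20001 gene names in the tables. Together they held 1448 different sites among the 1076788 listed in any library.

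An imprinted gene is transcribed mainly from the copy inherited from one parent, and the parental copies of its locus differ in DNA methylation set in the germ line. Many imprinted genes act in fetal growth and in stem and progenitor cells. Igf2, Peg3, Peg10, Mest, Dlk1, Plagl1 and Zdbf2 are paternally expressed genes, whereas Igf2r and Cdkn1c are expressed mainly from the maternal copy, as is Grb10 in many tissues outside neurons. In mRNA, m6A is written by a nuclear complex with METTL3 as its catalytic subunit and is read by proteins that affect splicing, translation and decay. The tables do not separate the parental copies, so each value covers both.

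The assay was GLORI, in which glyoxal and nitrite turn unmethylated adenosine into inosine, read as G, while m6A stays A. The level of a site is thus the percentage of its reads in which A was kept. Per the labels, polyA RNA came from day 6 organoids of an Rx:GFP line in which a tag with HA and the degron FKBP12F36V was knocked into the C-terminus of Mettl3, in treated and untreated cells alike. dTAG13, a small molecule that sends proteins with this degron to the proteasome, was given at 125 nM for 8 h to the treated group (2 libraries) and was left out in the untreated group (0 h, 2 libraries). The labels name Mettl3 for the line, but their genotype entries name a different Mettl gene in each library, and the tables hold no measure of METTL3 protein. Nothing states that the libraries of a group came from separate cultures, so p-values measure the spread between these libraries, which may be technical.

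The untreated libraries listed 335607 and 350462 sites and the dTAG13 libraries 220034 and 263069, with a median of 75 to 91 reads per listed site. A table lists only called sites, which have a level of 10% or more, 5 or more reads with A and 15 or more reads in all. A position that is absent can therefore be unmethylated, under these limits or uncovered. dTAG13 replicate 1 had the lowest summed reads over its sites, 30102136 against 45966738 to 54905380 in the others. All 11 retinal progenitor markers looked up (such as Rax, Pax6 and Six6) had listed sites in every library, with a summed gene coverage of 3824 to 6704, a signal that the tables name but do not define. So did all 6 pluripotency markers (such as Pou5f1 and Nanog), with a summed coverage of 698 to 1002. Of 7 mesoderm and endoderm markers 1 to 4 were listed per library, and of 5 neuronal markers 3 or 4. The part of other cell types in the results below was not tested. In bulk RNA, fewer cells of a type and less RNA per cell cannot be told apart.

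Without dTAG13 the tables listed 418 and 507 sites of the 10 genes, and with dTAG13 they listed 325 and 356. Each dTAG13 total was smaller than each untreated total. The means were 462.5 ± 62.9 and 340.5 ± 21.9 (SD, n = 2 each), a ratio of 0.736, with p = 0.333 in a two-sided exact permutation test, the smallest p that libraries in groups of 2 can reach. In 6 of the 10 genes (Igf2, Peg3, Plagl1, Zdbf2, Cdkn1c and Grb10) both dTAG13 libraries listed fewer sites than both untreated libraries. The same held for 33.1% of all genes with a listed site. In none of the 10 genes did both list more, against 4.25% of all genes. The 8 genes listed in all 4 libraries were tested with limma on log2(sites + 1), and Grb10 and Cdkn1c, unlisted in at least 1 dTAG13 library, were not. None of the 8 passed an adjusted p of 0.05, nor did any of the 12520 genes tested (0% lower and 0% higher), although 2549 had an unadjusted p under 0.05. The median log2 change of the 8 genes was -0.47 and that of all genes tested was -0.45. The median imprinted gene thus had about the same decrease as the median gene, and the genes differed among themselves.

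**Figure D1:**
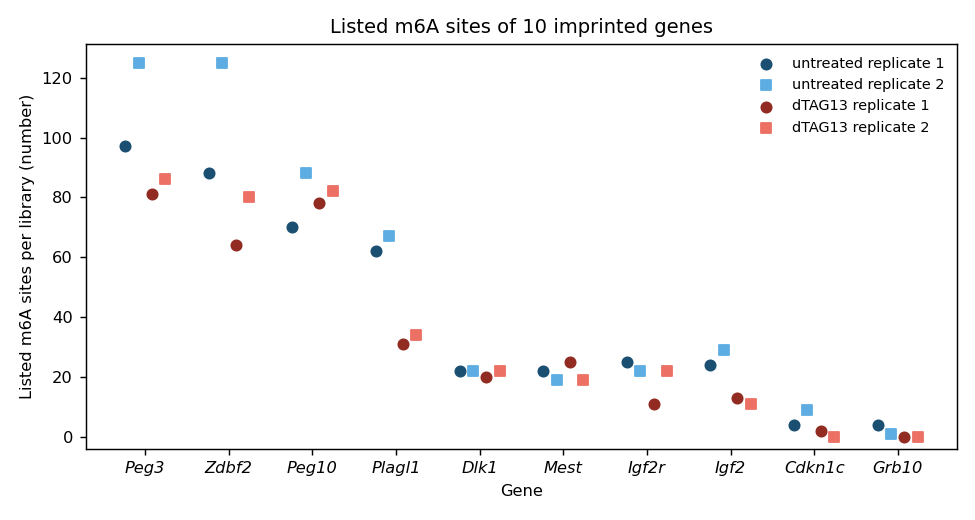
Number of listed m6A sites (vertical axis) in each of the 4 libraries (points; blue untreated, red dTAG13) for the 10 genes (horizontal axis). Plagl1 and Igf2 show the clearest gap between groups, with 62 and 67 against 31 and 34 sites in Plagl1, whereas Peg10, Mest and Dlk1 overlap.

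Plagl1, also known as Zac1, encodes a zinc finger transcription factor that restrains proliferation. Its tables listed 62 and 67 sites in untreated organoids but 31 and 34 after dTAG13. The groups were far apart, and the spread within each was small (64.5 ± 3.54 against 32.5 ± 2.12, SD, n = 2 each). The log2 change was -0.97 ± 0.14 (SE), with an unadjusted p of 0.00251 and an adjusted p of 0.208 in limma. Relative to the median gene it was -0.45 (adjusted p = 0.437 in limma), so much of the decrease was shared with the median gene. At an unadjusted p under 0.05, 19.5% of all genes tested were lower and 0.831% were higher. Among the 8 imprinted genes tested, only Plagl1 and Igf2 reached that level.

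The sites of Plagl1 were repeated between the untreated libraries. Untreated replicate 1 held 52 Plagl1 sites backed by 50 or more reads, of which 17 were listed in untreated replicate 2 (32.7%, Wilson 95% interval 21.5 to 46.2%). Only 1 was listed in each dTAG13 library (1.92%, 0.34 to 10.1%). Starting from the 55 such sites of untreated replicate 2, the shares were 30.9% in untreated replicate 1 and 3.64% in each dTAG13 library. In the other 9 genes, 10.3% of the sites of untreated replicate 1 recurred in untreated replicate 2, 7.11% in dTAG13 replicate 1 and 9.49% in dTAG13 replicate 2. Over the sites of all genes, 11.1% were repeated in untreated replicate 2, 6.00% in dTAG13 replicate 1 and 6.38% in dTAG13 replicate 2. The dTAG13 libraries repeated each other in this gene less than the untreated libraries did, at 2 of 24 (8.33%) and 2 of 26 sites (7.69%). The shares over all genes between the dTAG13 libraries were similar, at 7.48% and 6.48%. The intervals cover counting error only. Those of shares treat sites as independent, which neighbouring sites of a gene need not be, and each share rests on a single pair of libraries. Those of levels treat reads as independent molecules, which they need not be.

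Altogether 19 Plagl1 sites were listed in both untreated libraries, and none of them was listed in either dTAG13 library. Over all genes, 80% of the sites listed in both untreated libraries were unlisted in both dTAG13 libraries. Among the 186 genes with at least 10 sites of this kind, 18 (9.68%) had none left, and Plagl1 had the most sites of these 18. The cluster lies near the 3′ end of the listed stretch: 15 of the 19 sites fell within 2.24 kb, at chr10:13004970-13007211 on the plus strand. Listed Plagl1 sites in general gathered in this part. The stretch spanning all 19 (chr10:13000676-13007211) held 91.9% and 89.6% of the Plagl1 sites without and 80.6% and 85.3% with dTAG13. The deepest of the 19, chr10:13006345, was at 18.4% in untreated replicate 1 (1826 reads) and 20.4% in untreated replicate 2 (1061 reads). The next, chr10:13006266, was at 26.3% (1196 reads) and 14.6% (1366 reads), and chr10:13006809 was at 24.7% (906 reads) and 21.2% (755 reads). Most of these repeated sites had low to intermediate levels, with medians of 26.3% and 23.6% in the untreated libraries. A pair had a level of at least 90% in both, namely chr10:13003281 at 100% and 100% (37 and 24 reads) and chr10:13005679 at 92.9% and 100% (84 and 56 reads). At chr10:13005391 the untreated libraries gave 60.6% (548 reads) and 97.5% (600 reads), so a deep site could still differ between replicates by more than its counting error.

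The tables give no reads at unlisted positions, so the coverage of the 19 positions after dTAG13 is not known. Between chr10:13000676 and chr10:13007211 the untreated libraries listed 57 and 60 sites and the dTAG13 libraries 25 and 29, none of them among the 19. Median reads per listed site there were 192 and 137.5 without and 178 and 77 with dTAG13, and the deepest sites had 1826 and 1366 reads without and 698 and 821 with dTAG13. The deepest sites thus had fewer reads in both dTAG13 libraries. Gene coverage of Plagl1 was 293.2 and 250.0 without and 186.2 and 213.7 with dTAG13, lower in both dTAG13 libraries, a log2 change of -0.36 ± 0.22 relative to the median gene (SE, adjusted p = 0.515 in limma). The lower coverage moved with the smaller number of sites, and its part was not tested. Of the sites in the dTAG13 libraries, 2 were listed in both: chr10:13005387, at 15.6% and 19.8% (346 and 349 reads), and chr10:13004779, at 10.6% and 100% (198 and 65 reads). Neither was listed without dTAG13. Summed over whichever sites were listed, the share of A in Plagl1 was 25.4% and 25.6% without and 28.2% and 29.8% with dTAG13. Both dTAG13 values were slightly higher, but the change did not pass (log2 odds 0.26 ± 0.24, SE; adjusted p = 0.670 in limma). The number of listed sites and the level of the listed sites thus ran in different directions in this gene. So did the medians over all genes tested, at -0.45 (log2 change in sites) and 0.20 (log2 odds of the summed level).

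**Figure D2:**
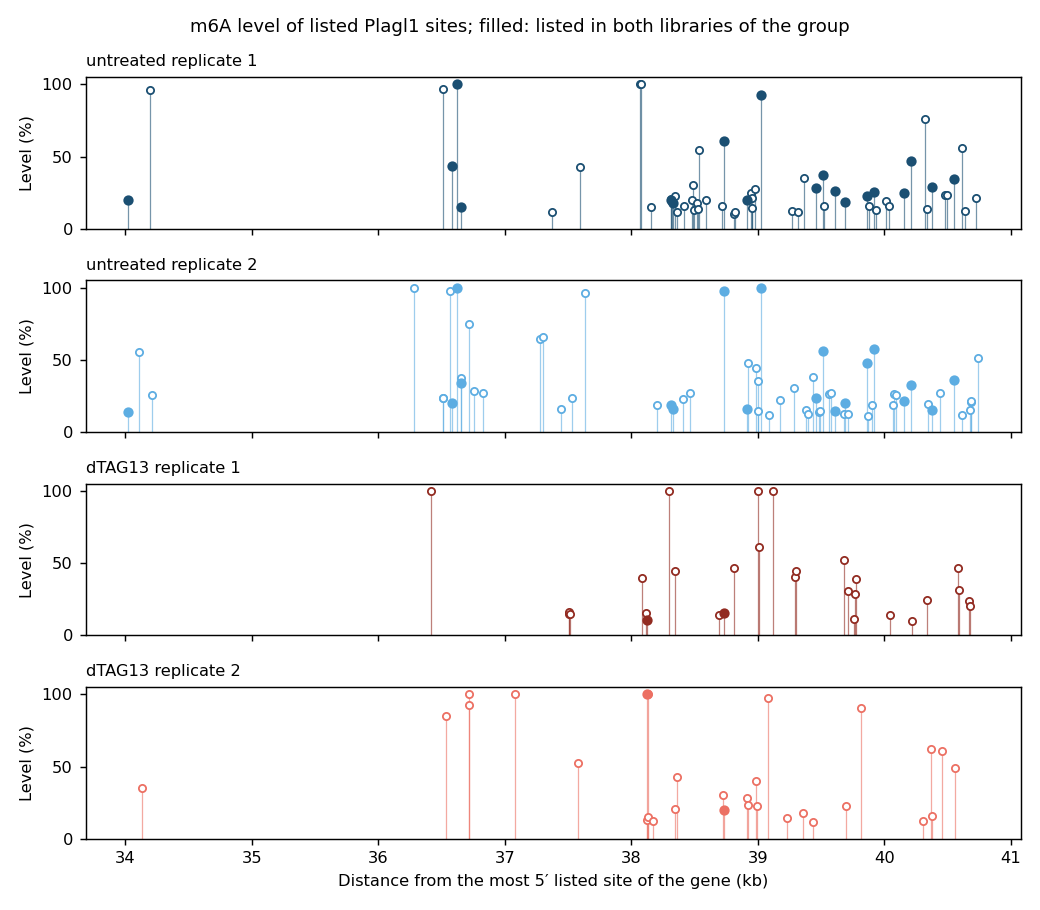
Level of each listed Plagl1 site (vertical axis, percent) against its distance from the most 5′ listed site (horizontal axis, kb), 1 panel per library, for the 3′ part of the gene. Filled points are sites listed in both libraries of the group: 19 in the untreated libraries and 2 in the dTAG13 libraries, at different positions.

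Over all 10 genes, 51 sites were listed in both untreated libraries, 20 in both dTAG13 libraries and 21 to 28 in each mixed pair. Plagl1 supplied 19 of the 51, Peg10 and Zdbf2 9 each, Peg3 8, Mest 3, Igf2r 2 and Dlk1 1. Of the 51, 44 (86.3%, Wilson 95% interval 74.3 to 93.2%) were unlisted in both dTAG13 libraries, beside 80% for all genes, and 7 were listed in 1 of them. Without Plagl1 it was 25 of 32 (78.1%). In the other direction, 14 of the 20 sites listed in both dTAG13 libraries were unlisted in both untreated libraries, beside 68.8% for all genes. No site of the 10 genes was listed in all 4 libraries, so none entered the planned site test, in which 51 of 2321 sites were lower (2.2%) and 2 higher (0.0862%). At least 50 reads in the reference library were then required. The share of untreated sites repeated with dTAG13 was 0.495 of the share repeated in the other untreated library, and 0.557 for all genes. Without Plagl1 the ratio of the remaining 9 genes was 0.752, so the value rests in large part on Plagl1.

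**Figure D3:**
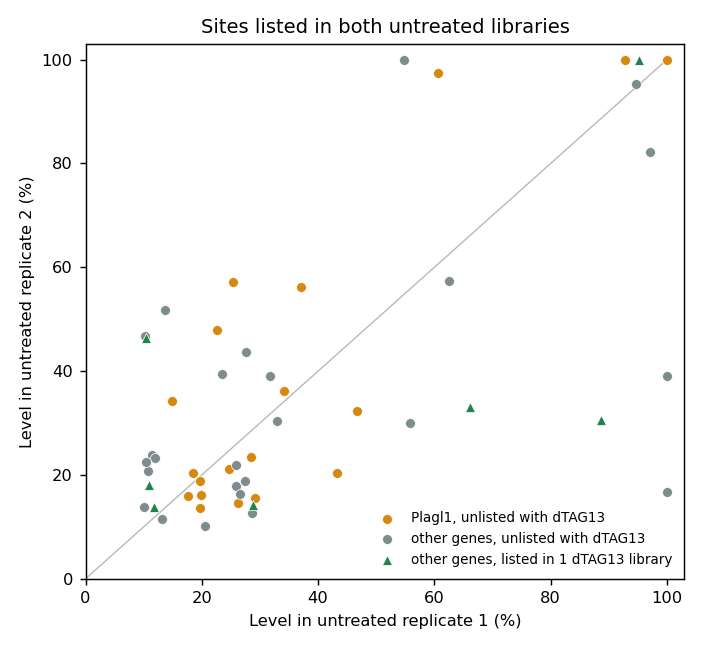
Level in untreated replicate 2 (vertical axis, percent) against untreated replicate 1 (horizontal axis, percent) at the 51 sites of the 10 genes listed in both; the line marks equal levels. Orange circles are the 19 Plagl1 sites and grey circles the sites of other genes unlisted with dTAG13; green triangles are the 7 sites listed in 1 dTAG13 library.

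Peg10 is derived from a retrotransposon, encodes proteins of the Gag and Pol type through a ribosomal frameshift, and is needed for the placenta. It had 270 sites in all, and its numbers did not separate the groups, with 70 and 88 without dTAG13 and 78 and 82 with it (log2 change 0.03 ± 0.17, SE; adjusted p = 0.939 in limma). That direction turned when untreated replicate 1 or dTAG13 replicate 2 was left out. Some of its highest levels were lower with dTAG13, in the sites listed in 3 libraries. At chr6:4758435 (plus strand) the level was 95.2% in untreated replicate 1 (1326 reads, Wilson 95% interval 93.9 to 96.2%) and 99.96% in untreated replicate 2 (2330 reads). In dTAG13 replicate 2 it was 27.6% (1777 reads, 25.6 to 29.8%), and dTAG13 replicate 1 did not list the site. At chr6:4758807 untreated replicate 1 gave 100% (189 reads), and the dTAG13 libraries gave 27.7% (166 reads) and 25.9% (216 reads). At chr6:4758290 untreated replicate 2 gave 60.5% (978 reads), and the dTAG13 libraries gave 24.9% (527 reads) and 35.7% (680 reads). These 3 sites lay close together, 1654 to 2171 bases before the most 3′ listed site. At each of the 3, every listed dTAG13 level was below every listed untreated level. However, untreated replicate 2 did not list chr6:4758807, and untreated replicate 1 did not list chr6:4758290. Each of these sites thus has a single untreated level.

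Altogether 7 Peg10 sites were listed in 3 of the 4 libraries. At all 7 the pooled dTAG13 level was below the pooled untreated level, with differences of -73.3 to -7.05 percentage points. The same direction held at 50.6% of all 9092 sites listed in at least 3 libraries. The other genes described here had 6 such sites, of which 2 in Zdbf2 were lower and 2 each in Mest and Peg3 were higher. Every dTAG13 level lay below every untreated level at 5 of the 7, beside 31.9% of all 9092 sites compared in this way, and above at none, beside 29.5%. Sites listed in only 1 library of each group did not share this direction: the dTAG13 level was lower at 11 and higher at 11 of 22 such Peg10 sites, and lower at 34 of 74 in the 10 genes together, beside 41.5% of all 37019. A quasi-binomial model, fitted to sites listed in at least 3 libraries with limma-moderated dispersion, called 0 of the 9092 (0% lower and 0% higher), with 1083 at an unadjusted p under 0.05. The adjusted p was 0.133 at chr6:4758807, 0.190 at chr6:4758435 and 0.317 at chr6:4758290, so none of the Peg10 changes passed. Untreated replicates could also disagree here: chr6:4759338 was at 88.7% and 30.6% without dTAG13 (426 and 849 reads) and at 11.9% in dTAG13 replicate 1 (519 reads). So could the dTAG13 libraries, by as much as the falls given above. In dTAG13 replicates 1 and 2, chr6:4757943 was at 80.3% and 17.2% (71 and 58 reads). At chr6:4757433 they gave 25.2% and 100% (147 and 78 reads).

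Peg10 also had a site at a high level in both dTAG13 libraries. At chr6:4757794 the dTAG13 libraries gave 83.6% (152 reads) and 81.5% (108 reads), and 21 bases on, at chr6:4757815, they gave 32.8% and 31.2% (131 and 112 reads). Neither position was listed without dTAG13. Over all listed Peg10 sites, the share of A among summed reads was 26.5% and 30.5% without and 20.9% and 22.3% with dTAG13. Both dTAG13 values were lower, but the change did not pass (log2 odds -0.53 ± 0.26, SE; adjusted p = 0.495 in limma), and it turned to 0.19 when the mean of the site levels was used instead.

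**Figure D4:**
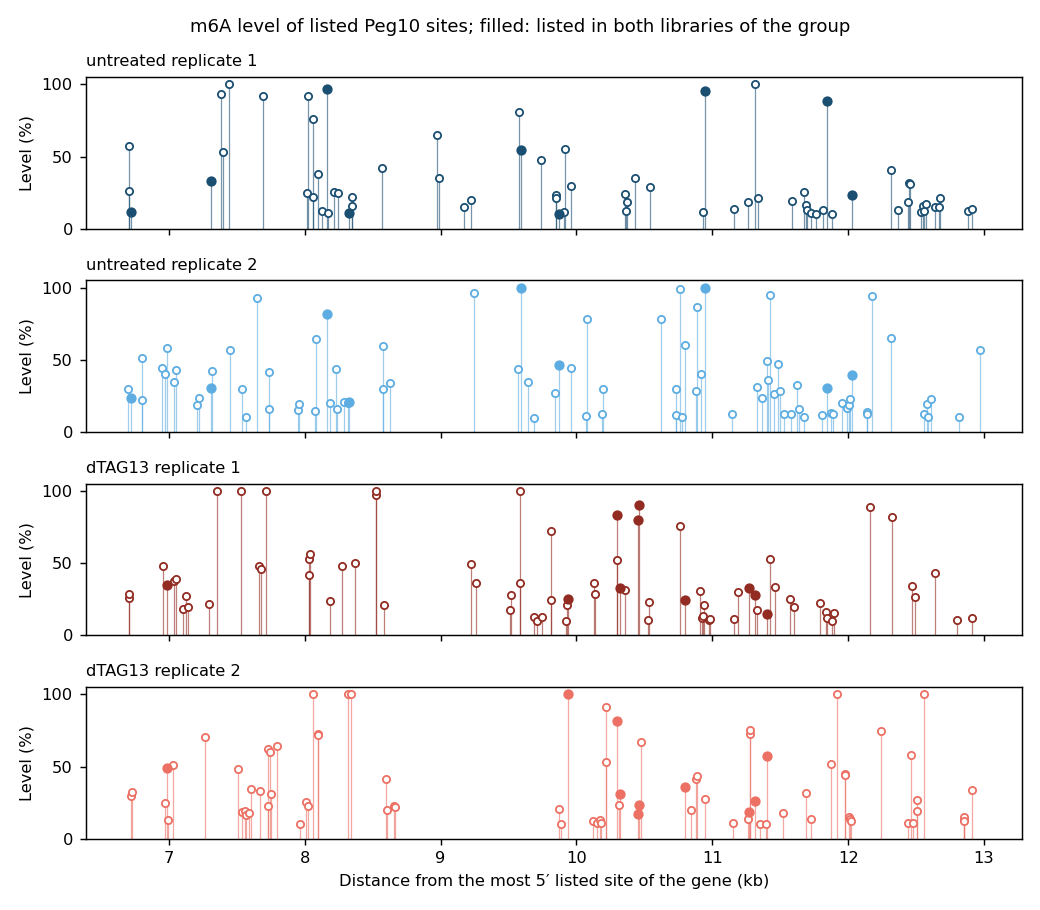
Level of each listed Peg10 site (vertical axis, percent) against its distance from the most 5′ listed site (horizontal axis, kb), 1 panel per library; filled points are listed in both libraries of the group. The untreated libraries share 9 sites, among them the one at 95.2% and 99.96%, and the dTAG13 libraries share 10 others.

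Peg3 and Zdbf2 encode zinc finger proteins and had the most sites of the 10 genes, 358 and 333. In Peg3 the libraries listed 97 and 125 sites without and 81 and 86 with dTAG13. In Zdbf2 they listed 88 and 125 without and 64 and 80 with dTAG13. Both genes were lower in both dTAG13 libraries, but the untreated libraries themselves were 28 and 37 sites apart. The log2 changes were -0.40 ± 0.18 in Peg3 and -0.55 ± 0.24 in Zdbf2 (SE; adjusted p = 0.294 and 0.292 in limma). Relative to the median gene the Peg3 value turned to 0.13 and the Zdbf2 value was -0.02 (adjusted p = 0.977 in limma), so neither decrease stood apart from that of the median gene.

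The deepest repeated site of Peg3 was chr7:6707020 (minus strand), at 27.4% and 18.9% without dTAG13 (1848 and 1485 reads) and unlisted with it. All 8 Peg3 sites listed in both untreated libraries were unlisted with dTAG13 (lower Wilson 95% limit 67.6%), beside 80% of such sites over all genes. Another Peg3 site gave like values in both groups: chr7:6709778 was at 13.2% in untreated replicate 2 (1010 reads) and at 13.2% and 17.5% in the dTAG13 libraries (755 and 280 reads). In Zdbf2, chr1:63348451 (plus strand) was at 28.9% and 14.1% without dTAG13 (1175 and 1350 reads) and 13.8% in dTAG13 replicate 2 (1218 reads). The only Zdbf2 site with at least 90% in both untreated libraries, chr1:63344236, had 94.7% and 95.3% on 19 and 64 reads and was unlisted with dTAG13. Sites at 90% or more made up 26 of 88 (29.5%) and 15 of 125 (12%) Zdbf2 sites without dTAG13. With it they made up 8 of 64 (12.5%) and 7 of 80 (8.75%), so the shares overlapped between the groups. Over all genes the shares were 15.8% and 14.5% without and 17.6% and 18.4% with dTAG13. The 2 dTAG13 libraries shared no Zdbf2 site. For 46 sites with at least 50 reads in dTAG13 replicate 1 this allows a share of up to 7.71% (upper Wilson 95% limit), beside 7.48% over all genes. For the 69 such sites of dTAG13 replicate 2 the limit was 5.27%, beside 6.48% over all genes.

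The growth factor axis comprises Igf2, a fetal growth factor, Igf2r, the receptor that carries IGF2 to lysosomes, and Grb10, an adaptor that dampens signalling of the insulin and IGF receptors. Igf2 had 24 and 29 listed sites in untreated organoids and 13 and 11 after dTAG13. The groups did not overlap (26.5 ± 3.54 against 12.0 ± 1.41, SD, n = 2 each), a log2 change of -1.08 ± 0.24 with an unadjusted p of 0.0100 and an adjusted p of 0.208 in limma. Relative to the median gene it was -0.56 (adjusted p = 0.570 in limma). Its coverage overlapped between the groups, at 91.6 and 98.7 without and 89.2 and 130.2 with dTAG13. No Igf2 site was listed in both untreated libraries, although 29 of its 73 sites lay in 1 kb at the 3′ end (chr7:142204567-142205566, minus strand). The deepest site, chr7:142205994, was at 31.7% in untreated replicate 1 (815 reads) and was listed nowhere else. The site chr7:142204677 was listed in both dTAG13 libraries, at 51.7% and 15.4% (240 and 455 reads).

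Igf2r had 25 and 22 sites without and 11 and 22 with dTAG13, so the groups met at 22. Its sites repeated without dTAG13 were chr17:12901502, at 10.2% and 46.8% (157 and 47 reads), and chr17:12901586, at 20.5% and 10.1% (78 and 69 reads), both on the minus strand and unlisted with dTAG13. Over all its listed sites the share of A was 37.9% and 36.3% without and 68.5% and 48.9% with dTAG13. This was the largest rise in summed level among the 8 genes tested (log2 odds 1.29 ± 0.47, SE), with an unadjusted p of 0.0459 and an adjusted p of 0.440 in limma. It was 0.70 without dTAG13 replicate 1, 1.88 without dTAG13 replicate 2 and 0.66 with the mean of the site levels. All genes tested had a median of 0.20 on this scale, none of 8150 passed (0% lower and 0% higher), 914 had an unadjusted p under 0.05 (3.61% lower and 7.61% higher), and the value moves with which sites are listed. Grb10 had 4 and 1 listed sites without dTAG13 and none with it, at a coverage of 50.3 and 43.4. Its deepest site, chr11:11881490 (minus strand), had 54 reads at 100% in untreated replicate 1. With so few sites, and no coverage value where a gene has no listed site, a loss in Grb10 was not detectable at this depth.

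Cdkn1c encodes p57, an inhibitor of cyclin-dependent kinases expressed as progenitors leave the cell cycle. It had 4 and 9 sites without dTAG13, 2 in dTAG13 replicate 1 and none in dTAG13 replicate 2, and no site was listed in more than 1 library. Its deepest site, chr7:143012208 (minus strand), was at 16.0% with 81 reads in untreated replicate 2. Coverage was low where it was listed, at 40.7 and 51.2 without dTAG13 and 38.5 in dTAG13 replicate 1.

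Dlk1, a transmembrane protein of the Delta family, and Mest, a member of the hydrolase fold family, had numbers of sites that overlapped between the groups. Dlk1 had 22 and 22 without and 20 and 22 with dTAG13 (log2 change -0.07 ± 0.19, SE), and relative to the median gene the value was 0.46. Mest had 22 and 19 without and 25 and 19 with dTAG13 (0.09 ± 0.24), a direction that turned when untreated replicate 2 or dTAG13 replicate 1 was left out. In Dlk1, 46 of 76 sites lay in 1 kb (chr12:109425547-109426546, plus strand), the second largest share of a gene's sites in 1 kb after the 11 of 15 of Cdkn1c, although Peg3, Peg10, Zdbf2 and Plagl1 had more sites in their densest 1 kb (53 to 79). A Dlk1 site there, chr12:109426311, was at 33.1% in untreated replicate 1 (735 reads) and 34.7% in dTAG13 replicate 1 (479 reads). Mest had by far the highest coverage of the 10 genes in every library, 3345 and 3931 without and 1741 and 3013 with dTAG13, but only 75 sites. Its levels were the lowest, with 12.6% and 16.6% of A among summed reads without and 15.1% and 13.8% with dTAG13. The deepest repeated site of the 10 genes, chr6:30745905 (plus strand), was at 11.8% and 13.8% without dTAG13 (3273 and 3746 reads) and 17.5% in dTAG13 replicate 1 (2289 reads). It was thus slightly higher with dTAG13, by 4.62 points (adjusted p = 0.525 in the quasi-binomial model on sites listed in at least 3 libraries), and chr6:30749819 ran the same way, at 11.0% and 18.1% against 22.8%.

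Gene coverage passed the test in none of the 8 genes listed in all 4 libraries. With limma on log2 coverage centred on the median gene, 0 of 12520 genes passed (0% lower and 0% higher), with 1595 at an unadjusted p under 0.05 (8.34% lower and 4.4% higher). The change was largest in Mest (-0.58 ± 0.23, SE; unadjusted p 0.0441, adjusted p = 0.384) and, in the other direction, in Zdbf2 (0.39 ± 0.22, adjusted p = 0.482). As deposited, coverage was lower in both dTAG13 libraries in Peg3, Mest and Plagl1, 3 of 8 genes beside 28.1% of all genes. In none of these 8 was it higher in both, beside 10.1%. Dlk1 coverage split the dTAG13 libraries, at 134.7 and 386.4 against 192.0 and 182.3 without dTAG13. Its log2 change of 0.37 ± 0.38 turned to -0.18 without dTAG13 replicate 2.

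The conversion rate, the share of A read as G over a gene, was higher with dTAG13 by 0.666 percentage points in the median gene and by 0.412 points in the median of the 8 imprinted genes. It was above both untreated values in both dTAG13 libraries in Plagl1 (96.9% and 96.5% against 97.6% and 97.2%) and in Zdbf2 (96.9% and 97.1% against 97.9% and 97.7%). That is 2 of 8 genes, beside 40.9% of all genes. Igf2 ran the other way, with 95.0% and 96.4% without and 94.6% and 93.6% with dTAG13, 1 of 8 beside 6.05%. With limma none of the 8 passed, as for 0 of 12520 genes (0% lower and 0% higher), 1488 of which had an unadjusted p under 0.05 (0.998% lower and 10.9% higher). The differences were -1.60 ± 0.82 points in Igf2 (SE, adjusted p = 0.503), 0.84 ± 0.58 in Zdbf2 (0.592) and 0.72 ± 0.60 in Plagl1 (0.645). Relative to the median gene they were -2.37 in Igf2, 0.07 in Zdbf2 and -0.05 in Plagl1, so the higher rates in Zdbf2 and Plagl1 did not exceed the general shift. A higher conversion rate moved with the smaller number of sites in Plagl1 and Zdbf2 but not in Igf2, and its part was not tested.

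**Figure D5:**
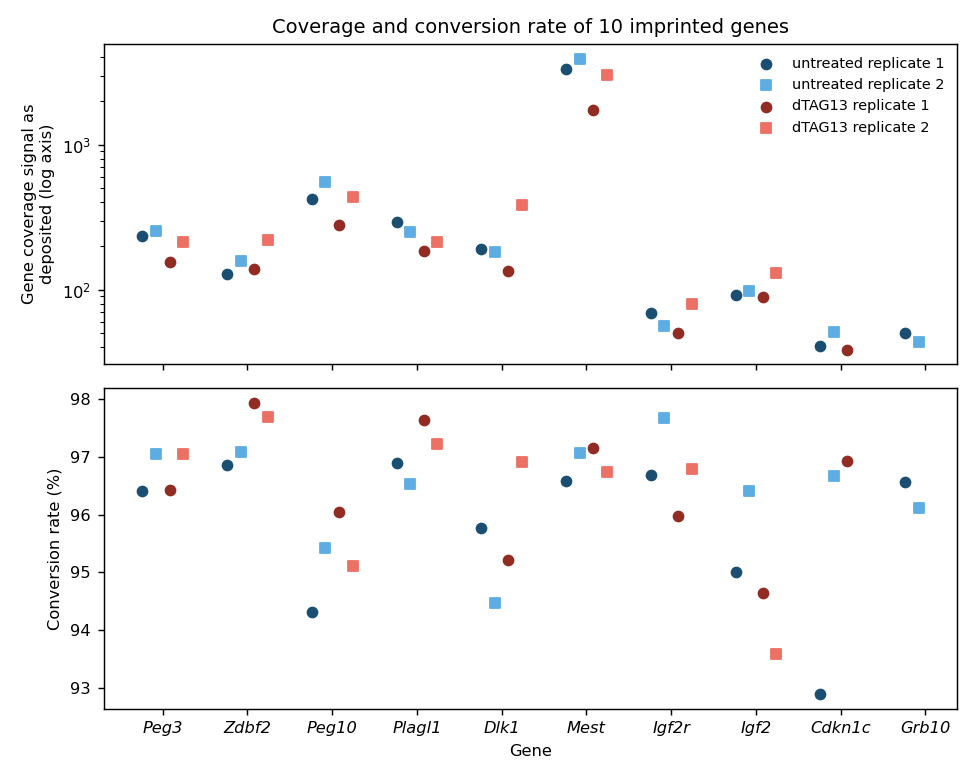
Gene coverage signal as deposited (upper panel, log axis) and conversion rate in percent (lower panel) of the 10 genes (horizontal axis) in the 4 libraries (points; blue untreated, red dTAG13). Grb10 has no value with dTAG13 and Cdkn1c none in dTAG13 replicate 2; Igf2 has the lowest conversion rate with dTAG13, at 94.6% and 93.6%.

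The listed stretches ran from 2.06 kb in Cdkn1c to 42.7 kb in Igf2r, and the sites were unevenly placed along them. The densest 1 kb held 31.7% of the 167 Plagl1 sites, 21.9% of those of Peg10, 22.1% of those of Peg3 and 16.5% of those of Zdbf2. The levels of the listed sites spanned the whole range in both groups. Sites at 90% or more made up 16.0% and 11.2% of them without and 13.2% and 12.4% with dTAG13, against 15.8%, 14.5%, 17.6% and 18.4% over all genes. Sites at 40 to 90% made up 16.7% and 20.7% without and 26.5% and 25.0% with dTAG13, against 20.3 to 20.8% over all genes. Most sites were seen once: 1303 of the 1448 were listed in 1 library, 132 in 2 and 13 in 3. The share seen once was lowest in Plagl1 (83.8%) and Peg10 (84.8%), and it was 94.5% in Igf2.

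A list of 37 other imprinted protein-coding genes, such as Ndn, Nnat, Ube3a and Gnas, was looked up for comparison, and 28 had listed sites. They summed to 518 and 484 sites without and 350 and 413 with dTAG13, a ratio of 0.761. Both dTAG13 libraries listed fewer sites than both untreated libraries in 9 of these 28 and more in 1, beside 33.1% and 4.25% of all genes with a listed site. Of the 21 listed in all 4 libraries, none passed the limma test of listed sites, coverage or conversion rate, although 4, 4 and 6 had an unadjusted p under 0.05. Their median log2 change in sites was -0.30. For the summed level, none of the 16 genes of this list with at least 5 sites in every library passed, with 1 at an unadjusted p under 0.05.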

How the data were processed

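GLORI site tables of 2 untreated and 2 dTAG13 libraries were read as deposited, with groups from the sample titles. The deposited counts are A or G reads and A reads per site, not normalised. The deposited level is a fraction, not corrected for conversion; it matched A over A and G reads at 100% of sites (within rounding to 5 decimals). The deposited conversion rate (a fraction) and a signal headed as gene coverage have 1 value per gene; the headers do not define the signal, which was taken as read coverage per gene. Each site has a p-value of the authors. Per the deposited tables' names, adapter and UMI trimming preceded calling. The aligner and caller are not given in the sources used here. The submitters' processing notes name mm10, but the tables hold 2 contigs named as in GRCm39, and 46.5% of the sites of the 10 genes lie in the GRCm38 interval of their gene. The share was 0% in Igf2, Igf2r, Grb10, Cdkn1c, Dlk1 and Plagl1 and 0.3% in Zdbf2. It was 60% in Mest, 99.7% in Peg3 and 100% in Peg10. Coordinates are therefore as listed, with sequence, exon and UTR not assigned.

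Tests used limma 3.58.1 in R 4.3.3. Genes listed in all 4 libraries were fitted for log2(sites + 1), centred log2 coverage and conversion rate, and genes with at least 5 sites in every library for log2 odds of the summed level. Sites had a quasi-binomial model with moderated dispersion and at least 20 reads. Benjamini-Hochberg adjustment covered all features (threshold 0.05). Scripts were tested on simulated data. All 10 genes are named. Named sites are those listed in most libraries (up to 3 per gene), the deepest of each gene, and those at 90% or more in both untreated libraries; the few others (further sites listed in 2 or 3 libraries in Peg10, Plagl1 and Mest) were chosen after their values were seen. Members and lists were chosen with earlier results of these data known. Alternatives were other filters, scalings, summaries, left-out libraries and a replicate block.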

Additional observations from a re-analysis of the deposited data

How the results depend on the processing

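The ratio of listed sites of the 10 genes (0.736) ran from 0.672 to 0.815 when each library was left out. The ratio of repeated untreated sites (0.495) ran from 0.421 to 0.568 without a dTAG13 library and was 0.752 without Plagl1 (chosen after the data were seen); it has no value without an untreated library. The call counts over all genes were 0 for every gene test and alternative except 88 for listed sites centred on the median gene and 15 for coverage without centring. None of the 10 genes was among them. The site test called 53 sites, 0 to 32 with a library left out, 0 with the replicate block and 0 at sites listed in at least 3 libraries. Deviations of same-numbered libraries correlated at 0.0023, -0.0044 and 0.0064 for coverage, listed sites and conversion rate. They thus showed no shared deviation, which does not settle whether the libraries were paired. The replicate block changed no call of an imprinted gene. Directions that turned, none of them a call, were as follows. Listed sites turned with centring in Peg3 (0.13) and Dlk1 (0.46), and with a library left out in Peg10 (-0.14 to 0.19) and Mest (-0.10 to 0.28). Summed level turned with the mean of site levels in Peg10 (0.19), Dlk1 (0.38) and Zdbf2 (-0.28), with at least 50 reads in Mest (0.0044), and with a library left out in Mest (-0.25 to 0.23), Dlk1 (-0.49 to 0.24) and Zdbf2 (-0.13 to 0.20). Coverage turned in Igf2r (-0.083 to 0.27) and Dlk1 (-0.18 to 0.91) with a library left out. Conversion rate turned with centring in Peg3 (-0.77), Peg10 (-0.068), Mest (-0.65) and Plagl1 (-0.05), and with a library left out in Peg3 (-0.32 to 0.33) and Mest (-0.12 to 0.36). The cause was not tested. Depth limits every absence: unlisted sites have no level, and groups of 2 libraries limit every test.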

Other observations

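Noncoding partners of these genes, looked up after the data were seen, had listed sites of their own. Airn, the paternally expressed RNA transcribed antisense to Igf2r, had 3 and 6 listed sites in the dTAG13 libraries and none in the untreated libraries. It has no coverage value in the untreated libraries, so its absence there cannot be told from too few reads. H19, the neighbour of Igf2, had 20 and 26 sites without and 26 and 27 with dTAG13. Meg3, on the same chromosome as Dlk1, had 53 and 43 without and 31 and 36 with dTAG13. Kcnq1ot1, whose locus also holds Cdkn1c, had 40 and 46 without and 17 and 29 with dTAG13, while its coverage was higher in both dTAG13 libraries (61.2 and 67.1 against 46.4 and 48.9). These values were not tested. Of all genes with a listed site, 33.1% had fewer sites in both dTAG13 libraries than in both untreated libraries, and 4.25% had more. Coverage was higher in both dTAG13 libraries in 10.1% of the genes listed in all 4 libraries.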
